A study of Mus musculus with 5 samples.

Results

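The translation initiation and elongation factors are the genes whose names in the deposited table begin with Eif or Eef followed by a digit. The pattern matched 73 names. Of these, 7 carry the pseudogene mark -ps and were left out, and all 7 had 0 counts in every library. A further 3 (Eef1a2, Eif4e1b and Eif2c5) had fewer than 20 counts over the libraries and at most 1, which left 63 genes of the 48440 in the table, 54 Eif and 9 Eef. Just inside the count limit was Eif4ebp3 with 109 counts, and the next lowest had 1679. All 63 passed the filter on low counts, so none was lost before testing.

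The RNA came from CD4+CD25+ regulatory T cells (Tregs), freshly isolated and untreated, that a bead-based kit had isolated from spleen. The mice were C57B/6 on a high-fat diet. There were 3 libraries labelled CD4-KLF10-KO (KO), from mice that lack the zinc-finger transcription factor KLF10 in CD4+ T cells, and 2 libraries labelled WT, with the same strain, diet and cell type. The labels name neither the Cre line and the deleted part of the gene nor the age, and do not say which animals the 5 libraries come from. P-values therefore cover the spread between libraries, which may be technical. The comparison asks which Treg transcripts differ once KLF10 is missing from CD4+ T cells.

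Protein synthesis starts when eIF2, carrying GTP and the initiator tRNA, joins the small ribosomal subunit with eIF1, eIF1A, eIF3 and eIF5. eIF4F then brings the capped mRNA, and eIF5B joins the large subunit. eEF1 delivers each further aminoacyl-tRNA and eEF2 moves the ribosome along. The pathway is throttled at known points: kinases that phosphorylate eIF2α slow initiation, 4E-BP proteins hold the cap-binding eIF4E, and the kinase eEF2K inactivates eEF2. Many of these factors are encoded by TOP mRNAs, whose pyrimidine-rich start places them under mTORC1, a pathway that Tregs depend on.

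Total counts lay between 25622614 and 30521797 per library. Klf10 itself had 408, 331 and 271 counts in the KO libraries, against 668 and 588 counts in the WT libraries. Its fitted log2 change of -0.84 (SE 0.22) was not called at a false discovery rate of 0.05 (adjusted p = 0.136, edgeR's quasi-likelihood F test, Benjamini-Hochberg), although it was by DESeq2 (adjusted p = 0.0195). The Treg markers were present in both groups: the levels of all 10, Foxp3 among them, summed to 2186 to 2255 CPM in KO and 2227 to 2720 CPM in WT (counts per 1000000, scaled by TMM). Of these 10, 2 were below both WT libraries in every KO library (20%, against 17.4% of all genes tested) and 0 above. The log2 changes of the 10, KO over WT, ran from -0.57 to 0.37, with 4 above 0 and 6 below. DESeq2 called 2 of the 10 as lower, where it called 1.51% of all genes as lower. Markers of other cells stood beside those of Tregs. The 18 erythroid markers tested summed to 57203 to 94789 CPM in KO and 15243 to 21272 CPM in WT, and the 18 macrophage markers to 1799 to 2220 CPM in KO and 745 to 1090 CPM in WT. For all 18 of each list every KO library lay above both WT libraries. The 14 pan-T cell markers summed to 2978 to 3078 CPM in KO and 3412 to 4000 CPM in WT, and 11 of the 14 were below both WT libraries in every KO library. The sums of the 12 B cell markers (3529 to 3824 CPM in KO, 2983 to 4306 CPM in WT) and of the 12 neutrophil markers (63.03 to 216 CPM in KO, 114 to 156 CPM in WT) overlapped. No listed marker that is in the table was at 0. In such a bulk preparation fewer cells of a type and less RNA per cell cannot be told apart.

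The promoter starts of some of the factors are shown first, because the run of C and T at the first base is what marks a TOP mRNA. RefSeq promoters (GRCm38.p6, from 250 bases before to 50 after an annotated start) were found for 49 of the 63 factors. Each line gives 15 bases on either side of the annotated start, 5′ to 3′ on the gene's strand, with the longest uninterrupted run of C and T that reaches within 5 bases of the start in capitals. Such a run need not begin at the first transcribed base, which was not determined. Its length therefore does not sort the factors into TOP and other mRNAs. The first group of lines holds factors with a run of at least 8 bases.
Eef1a1 (chr9:78481710-78481739, minus strand): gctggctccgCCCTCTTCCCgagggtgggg
Eif3f (chr7:108934400-108934429, plus strand): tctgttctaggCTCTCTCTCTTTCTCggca
Eif2s3x (chrX:94212637-94212666, minus strand): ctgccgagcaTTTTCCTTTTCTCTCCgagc
Eif2s3y (chrY:1010580-1010609, plus strand): gcggaggccacagccaCTTCCTTCTTTCgt
The second group holds the lower Eef1b2 and Eef2 and the factors with the highest log2 changes, where the run is short.
Eef1b2 (chr1:63176816-63176845, plus strand): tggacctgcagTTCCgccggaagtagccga
Eef2 (chr10:81176616-81176645, plus strand): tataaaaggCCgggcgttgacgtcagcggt
Eif2ak1 (chr5:143817777-143817806, plus strand): tggggcgggaCTTCCgttggctcttgtgtt
Eef2k (chr7:120842816-120842845, plus strand): tgcgccccgtgcgtcagTCCCgccccagcc
Eif5 (chr12:111538086-111538115, plus strand): gagatcgacgTgcatgcgagccaatgacaa

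Runs of at least 8 bases stood at 6 of the 49 starts (12.2%), against 9.38% of the 32851 promoters in the table. The 6 were the first group of lines together with Eif3l and Eif2b5. Their log2 changes, KO over WT, lay between -0.24 and -0.04 with a median of -0.09, beside a median of -0.03 for the factors with a promoter and no such run. The hexamer CACGTG, the E-box bound by MYC and related factors, was in 10 of the 49 promoters (20.4%), against 7.15% of all promoters, among them those of Eef2, Eef2k, Eif4a1 and Eif4g1. The median log2 change was -0.01 for the factors with CACGTG and -0.04 for those with a promoter and no CACGTG. Shares of all promoters were not limited to expressed genes. AGATAA, a form of the site of GATA factors, was searched on both strands with its complement TTATCT and was in 1 (2.04%), that of Eif3c, against 11.2% of all promoters. CACGTG reads the same on both strands, and the motifs share no bases. The annotated start of Eef1a1 lies 7427 bases inside the gene as the table bounds it, so these windows depend on which start RefSeq lists.

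**Figure D1:**
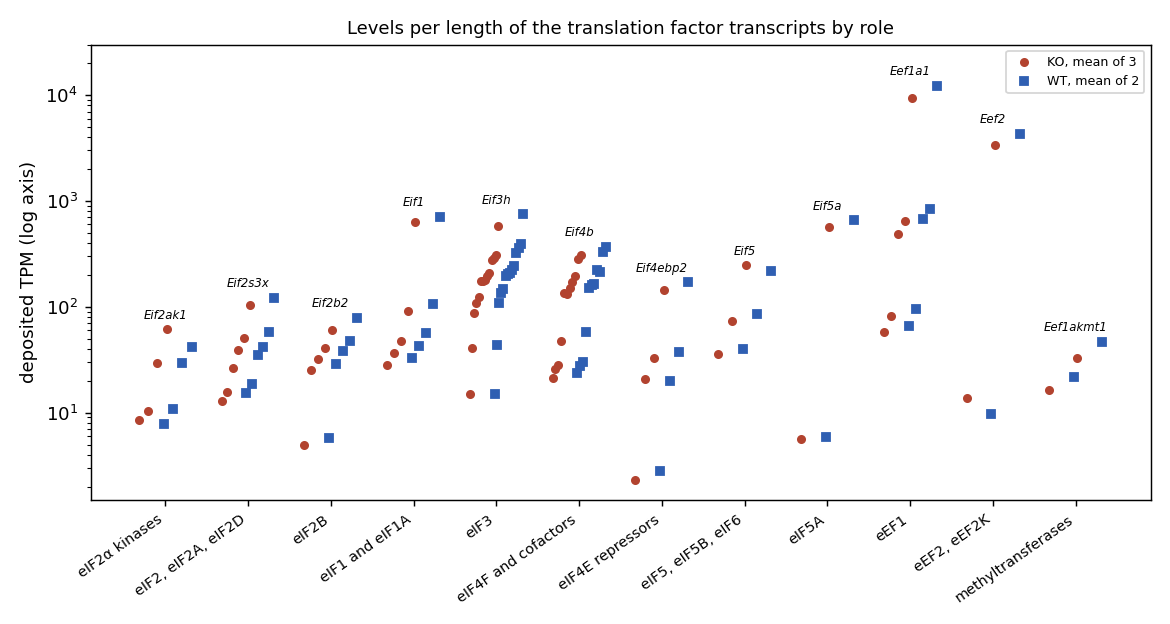
Deposited TPM (transcripts per 1000000, log axis) of the 63 factors by role, with the mean of 3 KO libraries (circles) left of the mean of 2 WT libraries (squares) and the most abundant factor of each role named. Eef1a1 and Eef2 stand above all others, and Eif4ebp3 is the lowest at 2.30 TPM in KO and 2.84 TPM in WT.

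Per length, the factors spanned more than 3 orders of magnitude on the scale of deposited TPM, and the elongation factors were at the top, as the plot of TPM by role shows. Eef1a1, which encodes the eEF1A that carries aminoacyl-tRNA to the ribosome, was at 8812, 10117 and 9391 TPM in KO and 12267 and 12109 TPM in WT. Eef2, the translocase, followed at 3163, 3579 and 3478 TPM in KO and 4164 and 4369 TPM in WT, so no library placed Eef2 above Eef1a1. The next 6 by mean TPM were Eef1g, Eif1, Eif3h, Eif5a, Eef1b2 and Eif3e, from 726 TPM for Eef1g to 343 TPM for Eif3e. In all, 27 of the 63 had a mean above 100 TPM. The tissue-restricted paralogue Eef1a2, the eEF1A of muscle and neurons, had 1 count in all, and the oocyte gene Eif4e1b had 0. TPM sums to the same total in each library, so a larger share for some genes leaves less for the rest. Haemoglobin took 8.25, 5.36 and 5.32% of the counts in KO and 2.03 and 1.42% in WT. Apart from shares and ratios of counts, differences between groups are therefore given on the TMM-scaled CPM scale from here on. TPM then serves only to compare genes with each other.

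Together the 63 factors took 2.54, 2.72 and 2.58% of all counts in KO and 2.90 and 2.98% in WT. The split within them does not depend on how libraries are scaled. The Eef genes made up 62.9, 63.9 and 63.1% of the factors' own counts in KO and 65.8 and 66.1% in WT, without overlap of the groups. Eef1a1 alone made up 39.4, 40.1 and 39.1% in KO and 41.8 and 41.2% in WT, whereas the share of Eef2, 17.6, 17.6 and 18.004% in KO and 17.6 and 18.5% in WT, overlapped. The 4 eIF2α kinases made up 1.06% on average in KO and 0.707% in WT.

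No factor was called between KO and WT over all genes. The false discovery rate of 0.05 was passed by 0 of the 63 in the edgeR test, where 0.284% of the 14460 genes tested passed. The DESeq2 Wald test called 3 factors: Eif2ak1 and Eef2k as higher (3.17% of the factors, against 5.84% of all genes with an adjusted p) and Eef1b2 as lower (1.59%, against 1.51%). These shares are below the background for the higher genes and close to it for the lower one. At an unadjusted edgeR p under 0.05 there were 4 higher factors (6.35%, against 10.7% of all genes tested) and 10 lower ones (15.9%, against 5.62%). That split depended on the setting. The same 4 and 10 were found without the filter on low counts and at an unadjusted p of the DESeq2 Wald test. Leaving out immunoglobulin, TCR, haemoglobin, mitochondrial and rRNA genes did not change them either, and DESeq2 size factors gave 5 and 9. In contrast, there were 16 higher and 0 lower with the libraries scaled to the pan-T cell markers. The split was 4 and 1 without KO replicate 1, 4 and 6 without KO replicate 2, and 5 and 3 without KO replicate 3. With the replicate number as a block it was 3 and 1. Every KO library lay above both WT libraries for 7 factors (11.1%, against 17.6% of all genes tested) and below both for 17 (27%, against 17.4%). Among the 4934 genes at or above the lower quartile of the factors in CPM, the share above was 12.8% and the share below 23.1%. At an unadjusted edgeR p under 0.05, 390 of these 4934 were higher and 424 lower.

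**Figure D2:**
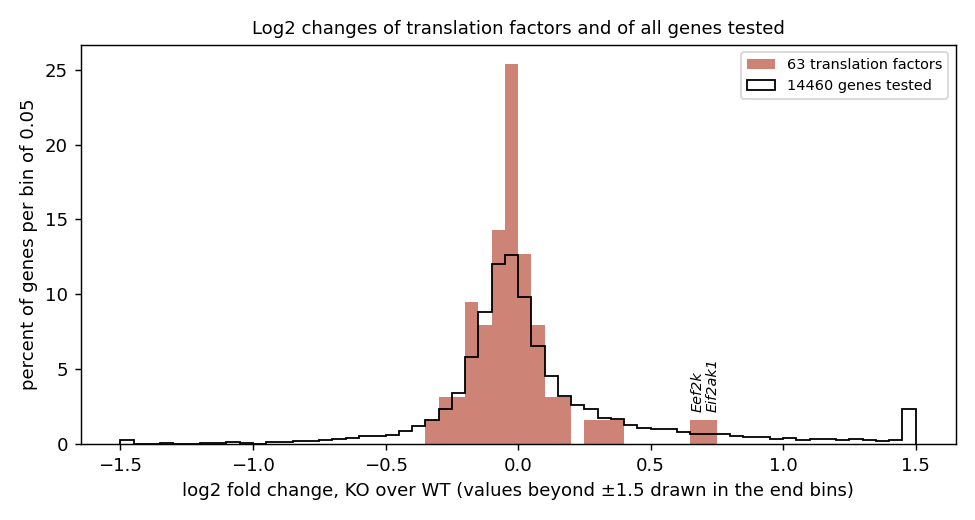
Distribution of log2 fold changes, KO over WT, in bins of 0.05 for the 63 factors (filled) and the 14460 genes tested (line), as percent of each set, with changes beyond 1.5 in either direction drawn in the end bins. The factors lie in a narrower band around 0 than all genes, apart from Eif2ak1 and Eef2k on the right.

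The factors' log2 changes lay close to 0. Their log2 changes had quartiles of -0.10 and 0.03 around a median of -0.04, beside quartiles of -0.12 and 0.16 around -0.01 for all genes tested. For 38 of the 63 the log2 change was within 0.1 of 0 (60.3%, against 41.1% of all genes), and for 54 (85.7%, against 55.1%) the whole 95% interval lay within 0.5 of 0. The median SE was 0.07, against 0.12 over all genes. The 4934 genes at or above the factors' lower quartile in CPM had quartiles of -0.10 and 0.04 around a median of -0.03. Their median SE was 0.07, so these values were close to those of the factors. The shares within 0.1 and 0.5 of 0 were not computed for the 4934. Library scaling sets the zero of this scale. With the libraries scaled to the pan-T cell markers, the median over all genes moved up to 0.26 and that of the factors to 0.23.

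**Figure D3:**
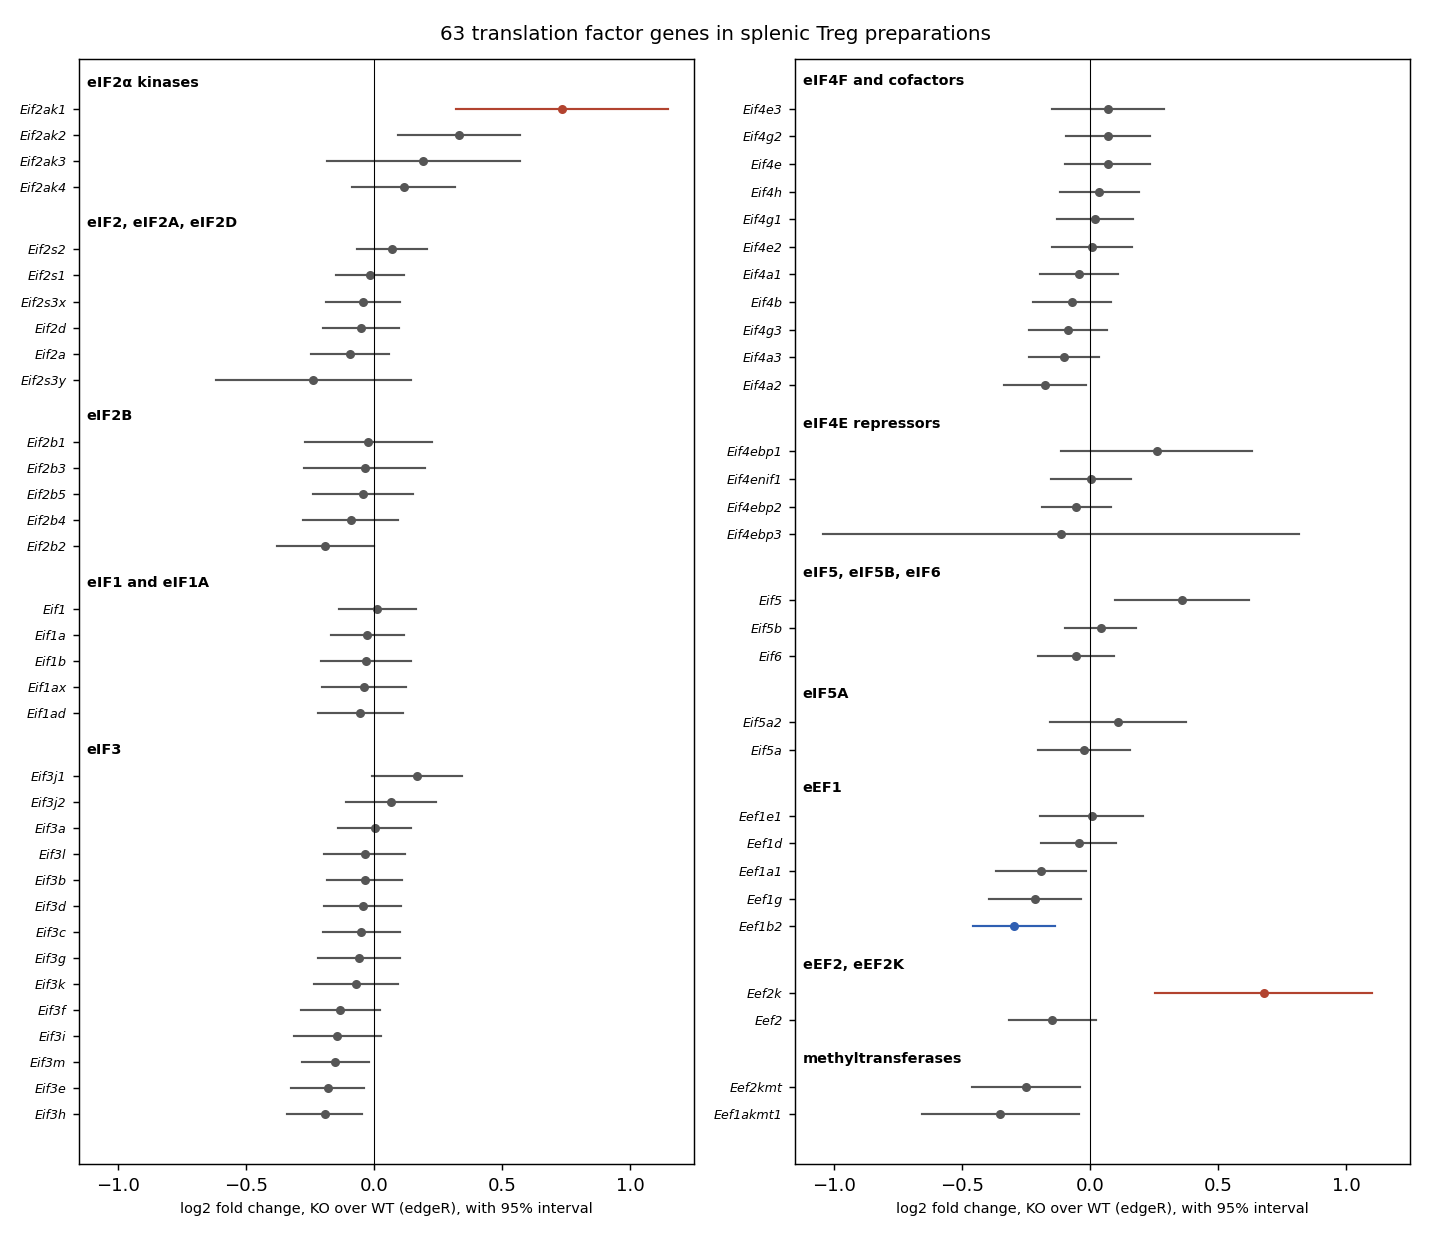
Log2 fold change, KO over WT, of each of the 63 factors with its 95% interval (edgeR), grouped by role. Red marks the factors that DESeq2 called as higher in KO (Eif2ak1 and Eef2k), blue the factor it called as lower (Eef1b2), and grey all others. No factor was called by edgeR, and most intervals cross 0.

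The 2 highest log2 changes among the factors were those of the kinase genes Eif2ak1 and Eef2k. Eif2ak1 encodes HRI, the haem-regulated kinase that phosphorylates eIF2α and is best known from red cell precursors. It was at 194, 136 and 136 CPM in KO and 89.2 and 97.6 CPM in WT. KO replicate 1 stood above the other KO libraries, and the groups did not overlap. The fitted log2 change was 0.74 (SE 0.17), a 1.66-fold difference, with an edgeR adjusted p of 0.104 and a DESeq2 adjusted p of 0.0020. The gene (ENSMUSG00000029613) lies on the plus strand of chromosome 5, from 143817788 to 143904251 (GRCm38). Without KO replicate 1 the log2 change was 0.55 and was called (edgeR adjusted p = 0.024, where 2.22% of all genes were called as higher). It was also called without the filter on low counts (edgeR adjusted p = 0.035, where 2.48% were called as higher). Scaling the libraries to the pan-T cell markers gave a call too, with values given below. The remaining edgeR settings gave no call: the edgeR adjusted p was 0.180 without KO replicate 2 and 0.105 without KO replicate 3. With the replicate number as a block it was 0.163.

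Eef2k, the kinase that inactivates eEF2, showed a difference of like size at a lower level. It was at 55.8, 43.7 and 36.4 CPM in KO and 28.5 and 28.1 CPM in WT. All KO libraries were above the WT libraries, again with replicate 1 the highest. The log2 change was 0.68 (SE 0.18), with an edgeR adjusted p of 0.125 and a DESeq2 adjusted p of 0.0112. It lies on the plus strand of chromosome 7, from 120842831 to 120907450. Its level relative to Eef2 within each library, which needs no scaling, was above WT in every KO library, by 0.80 on the log2 scale (two-sided exact permutation test over the 5 libraries, p = 0.1, the smallest this design allows).

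Of the other eIF2α kinases, Eif2ak2 encodes PKR, which binds double-stranded RNA and is induced by interferon. It was at 19.2, 20.3 and 19.2 CPM in KO and 16.6 and 14.4 CPM in WT (log2 change 0.33, SE 0.10, edgeR adjusted p = 0.168). The KO libraries were close together and above both WT libraries. Eif2ak3, the PERK kinase of the endoplasmic reticulum, was at 86.0, 64.2 and 66.8 CPM in KO and 56.1 and 70.4 CPM in WT, which overlap. Eif2ak4, the amino acid sensor GCN2, was at 36.2, 32.6 and 33.5 CPM in KO and 32.9 and 30.01 CPM in WT, which overlap as well. All 4 kinases had a log2 change above 0, from 0.12 to 0.74, where 46.7% of all genes tested were above 0. The log2 ratio of Eif2ak1 to Eif2ak4 was higher in KO by 0.60, with no overlap between the groups (exact permutation p = 0.1, again the smallest possible). With the libraries scaled to the pan-T cell markers, 4 factors were called as higher, where 8.3% of all genes were. Eif2ak1 then had a log2 change of 1.003 (edgeR adjusted p = 0.016) and Eef2k one of 0.95 (edgeR adjusted p = 0.017). Eif2ak2 stood at 0.61 and Eif5 at 0.63 (edgeR adjusted p = 0.020 and 0.025).

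**Figure D4:**
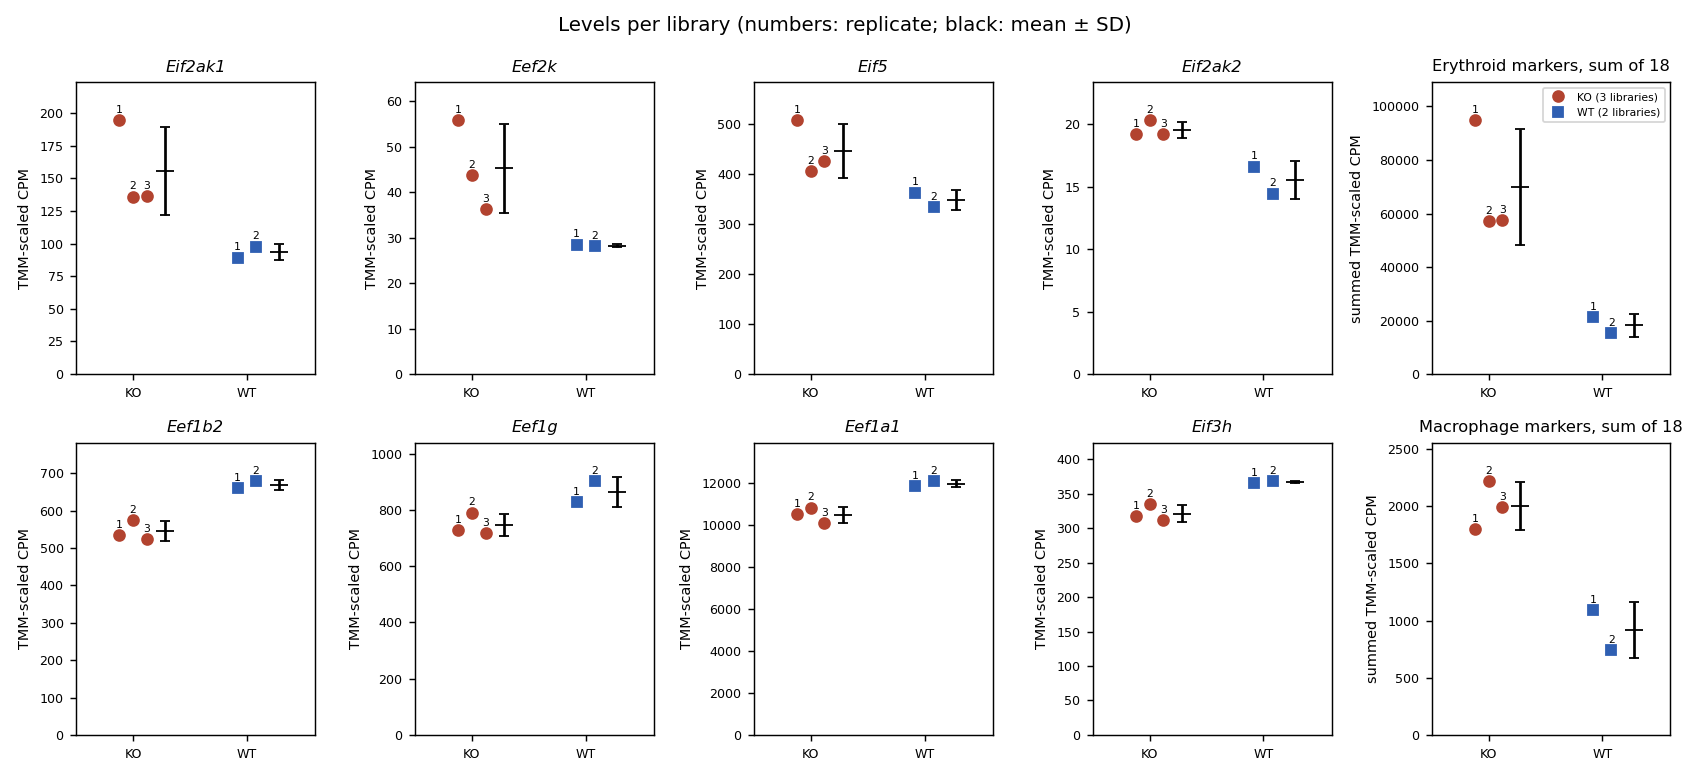
TMM-scaled CPM per library (y axes from 0) for 8 factors, and the summed CPM of 18 erythroid and 18 macrophage markers, in 3 KO (circles) and 2 WT (squares) libraries numbered by replicate, with mean ± SD in black. KO replicate 1 is the highest for Eif2ak1, Eef2k, Eif5 and the erythroid sum, and the lower row shows Eef1b2, Eef1g, Eef1a1 and Eif3h below WT in each KO library.

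The erythroid sum was higher in KO, as were Eif2ak1, Eef2k and Eif5. As the plot of levels by library shows, the sum was 94789, 57203 and 57399 CPM in KO replicates 1, 2 and 3 and 21272 and 15243 CPM in WT. The KO library with the highest Eif2ak1, Eef2k and Eif5 thus also had the highest erythroid sum. Within WT, replicate 1 had the higher erythroid sum and the lower Eif2ak1 (89.2 against 97.6 CPM in replicate 2). Eef2k (28.5 against 28.1 CPM) and Eif5 (363 against 334 CPM) were higher in WT replicate 1, as the erythroid sum was. The macrophage sum was 1799, 2220 and 1994 CPM in KO and 1090 and 745 CPM in WT, and was lowest among the KO libraries in replicate 1. The part of either cell type in the levels of these genes was not tested.

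Eif5, which triggers GTP hydrolysis by eIF2 when the start codon is found, had the next highest change. It was at 507, 406 and 425 CPM in KO and 363 and 334 CPM in WT, with all KO libraries above WT. The log2 change was 0.36 (SE 0.11), with an edgeR adjusted p of 0.175. Its neighbours in the last steps of initiation stayed closer to 0. Eif5b, the GTPase of subunit joining, was at 157 ± 4.02 CPM in KO and 152 ± 3.66 CPM in WT, and Eif6, which keeps free large subunits apart from small ones, at 88.4 ± 2.89 CPM in KO and 91.8 ± 3.43 CPM in WT (SD, n = 3 KO and 2 WT).

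For eIF2 itself, which the kinases act on, no subunit was called. Eif2s1, which encodes eIF2α, was at 77.0 ± 1.05 CPM in KO and 77.9 ± 0.952 CPM in WT (SD, n = 3 and 2), a log2 change of -0.02 with a 95% interval from -0.15 to 0.12. Eif2s2, the β subunit, was at 119, 116 and 114 CPM in KO and 110 and 112 CPM in WT, just above WT in each KO library (log2 change 0.07, edgeR adjusted p = 0.607). Eif2s3x and Eif2s3y encode the γ subunit on the X and Y chromosomes. Eif2s3x was at 182, 178 and 171 CPM in KO and 179 and 185 CPM in WT. Eif2s3y was counted in all 5 libraries, at 39.9, 51.7 and 52.6 CPM in KO and 64.0 and 49.2 CPM in WT, and its groups overlapped. Eif2a and Eif2d, which can bring the initiator tRNA without eIF2, had log2 changes of -0.09 and -0.05. Eif2a was at 43.4, 42.8 and 40.6 CPM in KO and 45.0 and 45.3 CPM in WT, the KO libraries just below.

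eIF2B, the exchange factor that reloads eIF2 with GTP, has 5 subunits, and all 5 had a log2 change below 0, between -0.19 and -0.02. Below 0 were also 7709 of the 14460 genes tested, and 3101 of the 4934 at or above the factors' lower quartile in CPM. Of the 5 subunits, Eif2b2 had the lowest log2 change, at 52.2, 53.7 and 47.1 CPM in KO and 56.2 and 60.2 CPM in WT (edgeR adjusted p = 0.302), with no overlap. The other subunits overlapped between the groups. With pan-T cell scaling all 5 log2 changes were above 0, from 0.08 to 0.24, so this direction turns with the scaling. Without KO replicate 3 those of Eif2b1, Eif2b3 and Eif2b5 were above 0 too, at 0.0469, 0.0074 and 0.0141. Of the factors that bind the small subunit, Eif1, which guards start codon choice and shares a long near-identical stretch with a transcript of Emd, was at 607, 585 and 572 CPM in KO and 568 and 598 CPM in WT. Eif1, Eif1a, Eif1ax, Eif1b and Eif1ad all overlapped between the groups, with log2 changes from -0.05 to 0.01.

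eIF3 is the largest initiation factor and bridges the small subunit and the mRNA. Of the 14 subunit genes measured, 11 had a log2 change below 0 and 3 above, with a median of -0.05 and 0 called. The share above 0 was 21.4%, against 46.7% of all genes tested. It was 37.2% for the 4934 genes at or above the factors' lower quartile in CPM. In every KO library 5 of the 14 were below both WT libraries (35.7%, against 17.4% of all genes tested and 23.1% of the same 4934). Eif3h was the lowest, at 318, 335 and 312 CPM in KO and 366 and 368 CPM in WT (log2 change -0.19, SE 0.06, edgeR adjusted p = 0.185). Eif3e was at 204, 214 and 214 CPM in KO and 245 and 233 CPM in WT (log2 change -0.18, SE 0.06, edgeR adjusted p = 0.203). With pan-T cell scaling both log2 changes were above 0, at 0.08 and 0.09, and below the median of all genes. Eif3e and Eif3h lie on chromosome 15, as Klf10 does, at 4.95 Mb and 13.5 Mb from it. The others of the chromosome, Eef1d, Eif3d, Eif3l and Eif4b, lie 37.6 to 63.8 Mb away and had log2 changes between -0.07 and -0.04.

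The deposited TPM of the eIF3 subunits differed widely among themselves, from 577 ± 46.5 TPM in KO and 746 ± 14.4 TPM in WT for Eif3h to 87 ± 6.14 TPM in KO and 108 ± 5.67 TPM in WT for Eif3i, leaving aside the loosely bound eIF3j (SD, n = 3 and 2). Eif3j1 and Eif3j2, near-identical genes for eIF3j, were at 38.7 ± 1.98 and 43.1 ± 2.04 CPM in KO and 34.5 ± 0.274 and 41.1 ± 2.07 CPM in WT. Their transcripts are at least 95% identical over 500 bases or more, so the division of reads between them is uncertain, and a transcript of the neighbouring gene Spg11 shares such a stretch with Eif3j1.

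The cap-binding complex, listed together with paralogues of its parts and helicase cofactors, showed no call and small differences. Of the 11 listed genes 6 had a log2 change above 0 and 5 below, all between -0.17 and 0.07. The cap-binding protein gene Eif4e was at 71.7, 69.9 and 64.0 CPM in KO and 65.7 and 64.9 CPM in WT, and the scaffold Eif4g1 at 444, 422 and 437 CPM in KO and 417 and 440 CPM in WT, both with overlap. Eif4g2, a relative of the scaffold used in cap-independent initiation, was at 941, 864 and 860 CPM in KO and 840 and 854 CPM in WT (log2 change 0.07, edgeR adjusted p = 0.675), the only gene of the 11 with each KO library above WT. Eif4b, the helicase cofactor with the highest TPM of the group, was at 505, 536 and 549 CPM in KO and 550 and 562 CPM in WT (log2 change -0.07, edgeR adjusted p = 0.647), the KO libraries just below. Of the helicases, Eif4a2 was lowest relative to WT, at 410, 411 and 408 CPM in KO and 487 and 438 CPM in WT (log2 change -0.17, SE 0.07, edgeR adjusted p = 0.268). Its paralogue Eif4a1 was at 552, 568 and 524 CPM in KO and 574 and 556 CPM in WT. The ratio of Eif4a2 to Eif4a1 counts was 0.744, 0.723 and 0.779 in KO and 0.847 and 0.789 in WT, without overlap (exact permutation p = 0.2).

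The repressors of eIF4E showed no called difference. Eif4ebp2 was at 114, 114 and 117 CPM in KO and 117 and 121 CPM in WT, with the KO libraries just below. Eif4ebp1, the main 4E-BP target of mTORC1 in many cells, was at 20.7, 21.1 and 19.5 CPM in KO and 14.1 and 20.04 CPM in WT (log2 change 0.26, SE 0.15, edgeR adjusted p = 0.466), with WT replicate 1 apart from the rest. The ratio of Eif4ebp2 to Eif4ebp1 counts was 5.52, 5.39 and 6.01 in KO and 8.32 and 6.04 in WT. Eif4ebp3 had 24, 16 and 23 counts in KO and 18 and 28 counts in WT, and its 95% interval from -1.04 to 0.82 cannot show a modest difference at this depth. Of the 11 paralogue and partner ratios computed, 2 were above WT in every KO library, 2 below and 7 overlapped, and with 10 possible arrangements none could reach a p under 0.05.

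Among the roles with 5 or more genes, the eEF1 complex, listed together with Eef1e1, had the lowest median log2 change, -0.19, with 0 called by edgeR. Of the 5 listed genes 3 were below WT in each KO library (60%, against 17.4% of all genes tested). The share was 23.1% for the 4934 genes at or above the factors' lower quartile in CPM. Eef1b2, the exchange factor that reloads eEF1A, was at 535, 576 and 525 CPM in KO and 660 and 679 CPM in WT. Each KO library was below both WT libraries. The fitted log2 change was -0.30 (SE 0.07), and the adjusted p was 0.0942 by edgeR and 0.0029 by DESeq2. It lies on the plus strand of chromosome 1, from 63176825 to 63180486. Eef1g, the γ subunit of the exchange complex, was at 729, 791 and 717 CPM in KO and 828 and 903 CPM in WT (log2 change -0.21, SE 0.07, edgeR adjusted p = 0.224).

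Eef1a1 was at 10510, 10809 and 10079 CPM in KO and 11822 and 12068 CPM in WT, also without overlap (log2 change -0.19, SE 0.07, edgeR adjusted p = 0.266). The remaining subunit of the exchange complex, Eef1d, was at 215 ± 7.15 CPM in KO and 222 ± 5.37 CPM in WT (SD, n = 3 and 2), and overlapped. Eef1e1, a scaffold of the tRNA synthetase complex, was at 26.7 ± 1.05 CPM in KO and 26.5 ± 1.85 CPM in WT and overlapped too. With pan-T cell scaling the log2 change was -0.03 for Eef1b2, 0.05 for Eef1g and 0.08 for Eef1a1, so of these only Eef1b2 kept a value below 0. Relative to the median of all genes, Eef1b2 was then at -0.29, Eef1g at -0.21 and Eef1a1 at -0.18. For Eef1a1, 5 near-identical copies in GENCODE M21 were listed at 0 counts in every library. How reads with several matches were placed is not stated, so the level of Eef1a1 is uncertain to that extent.

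Eef2 was at 4687, 4751 and 4639 CPM in KO and 4987 and 5411 CPM in WT (log2 change -0.15, SE 0.07, edgeR adjusted p = 0.369), so the KO libraries lay below WT while its kinase gene lay above. With pan-T cell scaling the Eef2 value was 0.12. The hypusine-carrying factor gene Eif5a, which helps stalled ribosomes over proline stretches, was at 610, 628 and 569 CPM in KO and 585 and 639 CPM in WT, with overlap, and its low paralogue Eif5a2 was at 12.4 ± 0.784 CPM in KO and 11.5 ± 0.623 CPM in WT (SD, n = 3 and 2). The methyltransferase genes for elongation factors also had log2 changes below 0. Eef1akmt1, which methylates eEF1A, was at 11.5, 11.9 and 12.7 CPM in KO and 17.1 and 13.7 CPM in WT (log2 change -0.35, SE 0.13, edgeR adjusted p = 0.247). WT replicate 1 stood above the rest: the Eef1akmt1 log2 change was -0.18 without it and -0.50 without WT replicate 2. Eef2kmt, which methylates eEF2, was at 18.2, 19.0 and 20.1 CPM in KO and 23.5 and 22.1 CPM in WT (log2 change -0.25, SE 0.09, edgeR adjusted p = 0.224).

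In 4 other gene lists of translation 0 genes were called by edgeR. Of 22 poly(A)-binding, termination and recycling factors, 22 cytosolic tRNA synthetase genes, 21 genes of mTORC1 and related signalling and 10 mitochondrial translation factors, the median log2 changes were -0.02, -0.01, -0.03 and -0.07. DESeq2 called 0, 0, 2 and 0 of them, where it called 1.51% of all genes as lower and 5.84% as higher. The 2 were both lower: Myc, the growth-promoting transcription factor gene, at 161 ± 10.5 CPM in KO and 202 ± 4.73 CPM in WT (DESeq2 adjusted p = 0.0056), and Rps6, the ribosomal substrate of S6 kinase, at 1487 ± 63.9 CPM in KO and 1744 ± 6.95 CPM in WT (DESeq2 adjusted p = 0.0237; SD, n = 3 and 2). The widest log2 changes in these lists were 0.59 for Gspt2 and -0.52 for Mcts2, both under 3 CPM in every group mean, 0.20 for Aars and -0.15 for Qars, 0.48 for Ddit4 and -0.33 for Myc, and 0.07 for Mtfmt and -0.13 for Mrrf.

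Most genes of the ATF4 list had values above 0. ATF4 is the transcription factor made when eIF2α is phosphorylated. Of 23 genes tested from a list of ATF4 and its targets, 16 had a log2 change above 0 and 7 below (median 0.18). The share above 0 was 69.6%, against 46.7% of all genes tested. All KO libraries were above both WT libraries for 10 of the 23 (43.5%, against 17.6% of all genes tested) and below for 0. By edgeR 0 passed (lowest adjusted p = 0.161), and by DESeq2 3 were higher (5.84% of all genes). These were Asns, asparagine synthetase, at 16.0 ± 2.95 CPM in KO and 9.88 ± 2.08 CPM in WT, Slc7a5, an amino acid transporter, at 133 ± 27.7 CPM in KO and 89.4 ± 5.62 CPM in WT, and Herpud1, of the endoplasmic reticulum stress response, at 192 ± 36.7 CPM in KO and 130 ± 25.1 CPM in WT (DESeq2 adjusted p = 0.0445, 0.0262 and 0.0454; SD, n = 3 and 2). The widest changes were 0.94 for Slc7a11, the cystine transporter, near 1 CPM, and -0.25 for Pycr1. The erythroid and macrophage sums were higher in the same libraries, and their part in these values was not tested.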

How the data were processed

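The 5 libraries (3 KO, 2 WT) were made from rRNA-depleted total RNA, per the labels' protocols. The submitters' processing notes name Trimmomatic 0.36, STAR 2.5.2b and the build GRCm38. How reads were counted, with which annotation, strand setting and rule for several matches, is not stated in those sources. The authors deposited whole-number counts per gene, RPKM (not used), TPM, which sum to 1000000 per library, and a score column named CPM that sums to 976872 to 1054093 and was not used. Reads of overlapping and antisense genes may not be separable. All 63 identifiers were found in GENCODE M21.

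The counts were fitted in R 4.3.3 with edgeR 4.0.16 (filterByExpr, TMM, then glmQLFit and glmQLFTest on genotype alone). Benjamini-Hochberg adjustment covered all 14460 genes that passed the filter, with calls at a false discovery rate of 0.05. Each ± is an SD over 3 KO or 2 WT libraries. The SE of a log2 change is its size over the root of F, and 95% intervals use the fitted degrees of freedom. DESeq2 1.42.0 was an alternative, as were DESeq2 size factors, no filter or a mean of at least 50 counts, scaling to 14 pan-T cell markers, a replicate block, leaving out 890 genes (immunoglobulin, TCR, haemoglobin, mitochondrial, rRNA), and leaving out each library. No library was a second copy of another: within a group, the chi-square of the counts was 16.5 to 39.1 times its degrees of freedom. Copies were sought by megablast (at least 95% identity over 500 bases).

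The factors and lists were chosen with earlier results of these data known. Values are given by rule for factors called by edgeR or DESeq2, the 8 highest in TPM, the 6 largest rises and 6 largest falls at or above the median level, the highest of each role and the widest changes of each other list. The remaining factors, the promoter motifs, and the limits of 0.1 and 0.5 on log2 changes and intervals were chosen after values were seen.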

Additional observations from a re-analysis of the deposited data

How the results depend on the processing

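At a false discovery rate of 0.05 no factor was called by edgeR with DESeq2 size factors, the stricter filter, the replicate block or the 890 genes left out. The DESeq2 Wald test called 3, pan-T cell scaling 4 and no filter 1. Over all genes 41 were called, against 1226 with pan-T cell scaling, 589 without a filter, 23 with the stricter filter, 1022 by DESeq2 and 118 without the 890 genes. In the other translation lists 0 were called, against 6 with pan-T cell scaling and 5 by DESeq2. The median log2 change of the factors was -0.04, and 0.23 with pan-T cell scaling. Leaving out each library gave 0 to 1 called factors (1 without KO replicate 1), 1 to 334 genes called in all, medians from -0.0689 to 0.0042 and 5 to 10 factors at an unadjusted p under 0.05, against 14 (5 without KO replicate 1, 8 without KO replicate 3 or WT replicate 1, 9 without WT replicate 2). All genes called were 334 without KO replicate 1, 1 without KO replicate 2, 11 without KO replicate 3 and 3 without WT replicate 2. With 1 WT library left out, the lone one is assumed to vary like the KO libraries.

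With pan-T cell scaling the log2 changes of genes named by rule turned to 0.0777 for Eef1a1, 0.12 for Eef2, 0.0491 for Eef1g, 0.0765 for Eif3h, 0.24 for Eif5a, 0.0915 for Eif3e, 0.0482 for Eif2s3y, 0.0758 for Eif2b2, 0.23 for Eif2s3x, 0.22 for Eif4ebp2, 0.20 for Eif4b, 0.12 for Qars and 0.13 for Mrrf. Deviations of same-numbered libraries correlated at -0.000136 for replicate 1 and 0.0625 for replicate 2. With 2 WT libraries the deviations of 1 mirror those of the other, so these values cannot decide whether the replicate number pairs libraries. With the replicate block 4 factors had an unadjusted p under 0.05 and Eif5a turned to 0.0172, Eif2b1 to 0.0427, Eif2b3 to 0.0023 and Eif2b5 to 0.0080. Leaving out libraries turned, among others, Eif2b1 (-0.12 to 0.0806), Eif2b3 (-0.0892 to 0.0198), Eif2b5 (-0.10 to 0.0180), Eif1 (-0.0239 to 0.0498), Eif5a (-0.0863 to 0.0413), Pycr1 (-0.70 to 0.37), Mrrf (-0.26 to 0.0127) and the log2 ratios of Eif4e2 to Eif4e (-0.11 to 0.0057), Eif4e3 to Eif4e (-0.0338 to 0.0396) and Eif1ax to Eif1a (-0.0415 to 0.0125). The cause was not tested.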
